A study of Cicer arietinum with 4 samples.

Results

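Heat stress transcription factors of class B of chickpea (*Cicer arietinum*), a legume crop, were followed in ovules through the genes HSFB4, HSFB4B, HSFB2A and HSFB2B. These are 4 of the 28783 genes in the deposited expression table and 4 of the 9 whose identifiers begin with HSFB. They were taken by identifier, with their levels after and before fertilization in these same libraries already known. The differences between the groups are therefore given for these 4 genes as a description, without a p-value. Ovules, the structures that hold the egg cell and become seeds, came from the cultivar ICC4958, which all groups share. The post-fertilization ovules were taken from half-opened flowers and the pre-fertilization ovules from closed buds, with 2 libraries of total RNA in each group. Flower stage thus differs together with fertilization, and the effects of stage and fertilization cannot be told apart. The libraries are called post A, post B, pre A and pre B, and the letters carry no order. Levels are in FPKM, the number of sequenced fragments scaled to transcript length and to library size, as the authors computed it.

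Heat stress transcription factors bind DNA as trimers at heat shock elements, short repeats in the promoters of chaperone and other stress genes. Class A members carry activation motifs and switch such genes on. Class B members lack those motifs, and several of them act as repressors, as known from Arabidopsis and tomato. In Arabidopsis the B4 type, also called SCHIZORIZA, sets cell identity in dividing root stem cells. The B2b type there holds back heat and defence genes together with the B1 type, and the B2a type has been tied to development of the female gametophyte.

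The 4 genes fell into 2 pairs. The B4 types HSFB4 and HSFB4B were lower after fertilization, and the B2 types HSFB2A and HSFB2B were higher. In all 4 genes the libraries of the groups did not overlap. The same was true of 75.7% of the 17849 genes that had at least 1 FPKM in 2 or more libraries, the condition for entering the test. Both post-fertilization libraries were above both pre-fertilization libraries in 39.3% of these genes and below them in 36.4%, so a lack of overlap was common and is no result about the 4 genes.

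HSFB4, on chromosome 5 from 36710805 to 36712488, had 5.75 FPKM in post A and 1.77 FPKM in post B, against 42.2 FPKM in pre A and 46.6 FPKM in pre B. Both post-fertilization libraries were far below both pre-fertilization libraries, and the higher post-fertilization value was still 7.34-fold below the lower pre-fertilization value. The means were 3.76 ± 2.82 FPKM after fertilization and 44.4 ± 3.11 FPKM before (SD, n = 2 each), a level 11.8-fold lower after fertilization. The log2 fold change, post minus pre, was -3.39 (SE 0.44) on the log2(FPKM + 1) scale. The added 1 makes changes of low genes look smaller than they are. The size of this difference depends on post B, in which HSFB4 was 3.25-fold lower than in post A. With post B left out the gene was 7.72-fold lower after fertilization, and with post A left out 25.1-fold lower. Before fertilization HSFB4 ranked first among the 21 heat stress transcription factor genes in both libraries, above 84.0% of the tested genes in pre A and 85.8% in pre B. After fertilization it ranked 9 of 21 in post A and 15 of 21 in post B, above 28.4% and 8.7% of the tested genes.

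HSFB4B, a second gene of the B4 type, lies on chromosome 2 from 33277994 to 33279492. It had 4.65 FPKM in post A and 4.81 FPKM in post B, against 12.7 FPKM in pre A and 13.7 FPKM in pre B. The post-fertilization libraries lay closer together than in any of the other 3 genes, and the groups were well apart. The means were 4.73 ± 0.118 FPKM after and 13.2 ± 0.675 FPKM before fertilization (SD, n = 2 each), 2.79-fold lower after fertilization (log2 fold change -1.31, SE 0.13). Leaving out any single library kept the difference between 2.69-fold and 2.89-fold. Post A and post B differed by 0.04 on the log2 scale in this gene, while the median difference over all tested genes was 0.205.

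The 2 B4-type genes were not lowered in the same proportion. HSFB4 stood at 1.24 times the level of HSFB4B in post A and at 0.367 times its level in post B, against 3.31 times in pre A and 3.40 times in pre B. HSFB4 was thus the more abundant of the pair in both pre-fertilization libraries and in post A, and the less abundant in post B.

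HSFB2B, on chromosome 8 from 1870621 to 1872871, had 35.9 FPKM in post A and 61.2 FPKM in post B, against 16.1 FPKM in pre A and 12.7 FPKM in pre B. Both post-fertilization values lay above both pre-fertilization values, and the nearest values of the groups were 2.22-fold apart. The means were 48.5 ± 17.9 FPKM after and 14.4 ± 2.43 FPKM before fertilization (SD, n = 2 each), 3.36-fold higher after fertilization (log2 fold change 1.64, SE 0.29). Leaving out post A gave 4.24-fold, and leaving out post B gave 2.49-fold. HSFB2B was the most abundant of the 21 heat stress factor genes in post A and ranked 3 in post B. In pre A it ranked 4 and in pre B 6.

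HSFB2A, on chromosome 4 from 12653671 to 12655107, was the scarcest of the 4 before fertilization. It had 1.53 FPKM in post A and 9.12 FPKM in post B, against 0.668 FPKM in pre A and 0.748 FPKM in pre B. Post A lay only 2.04-fold above the nearer pre-fertilization library, and post B was 5.96-fold above post A. The means were 5.32 ± 5.37 FPKM after and 0.708 ± 0.0566 FPKM before fertilization (SD, n = 2 each), so the spread between the post-fertilization libraries was as large as their mean. The ratio of the means, 7.52-fold higher after fertilization, was 12.9-fold when post A was left out and 2.16-fold when post B was. HSFB2A entered the test only through its post-fertilization values, since both pre-fertilization values were below 1 FPKM. Its pre-fertilization levels rest on few fragments, at most about 14.4 in pre A and 8.9 in pre B, while at most about 33.3 were counted in post A and 218 in post B. These limits come from the smallest FPKM values in each library and from the span of the gene, and they cover counting only.

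**Figure D1:**
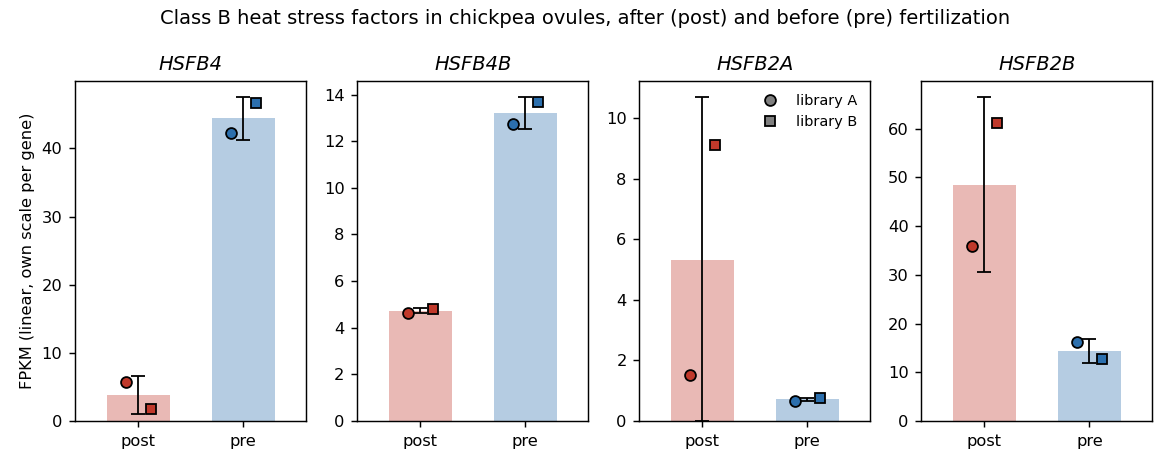
FPKM of HSFB4, HSFB4B, HSFB2A and HSFB2B in ovules after (post, left bar) and before (pre, right bar) fertilization, each gene on its own linear axis. Bars are means of 2 libraries, whiskers are ± 1 SD (cut off at 0 for HSFB2A), and circles and squares are the single libraries A and B. HSFB4 and HSFB4B are lower after fertilization in both libraries, HSFB2B is higher in both, and the post-fertilization values of HSFB2A lie at 1.53 and 9.12 FPKM.

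In a fit of all 17849 tested genes with limma, 36.5% were called different at a Benjamini-Hochberg adjusted p threshold of 0.05, 3754 (21.0%) higher and 2768 (15.5%) lower after fertilization. Of the 4 genes, 1 was called higher (HSFB2B), 2 were called lower (HSFB4 and HSFB4B) and HSFB2A was not past the threshold. Since the genes were chosen on this contrast, nothing is read from that count. The count of 3 was 0 without pre A and 0 without pre B. In those 2 fits the lone pre-fertilization library is assumed to vary like the post-fertilization pair, and only 776 and 653 genes were called in all. At an unadjusted p under 0.05 limma had 3 of the 4 genes in each of these 2 fits, from which nothing is read either. Over all tested genes the median of the log2 fold change was 0.02, and quantile normalization moved it to -0.14, with 2956 genes called higher and 4047 lower. With that scaling HSFB4 was at -3.56, HSFB4B at -1.45, HSFB2A at 1.29 and HSFB2B at 1.50, so none of the 4 directions turned. Scaled to the summed FPKM of all genes, which moved the median of all tested genes to -0.67, HSFB4 was at -4.00, HSFB4B at -1.98, HSFB2A at 1.06 and HSFB2B at 0.90. With that scaling HSFB2A was called higher and HSFB2B was not past the threshold. Nothing in the labels says whether the libraries of a group came from separate plants, so p-values measure only the spread between these samples.

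The class B gene with the highest level was not the same one in the 2 groups. FPKM is a level per length, so levels of different genes can be added. HSFB4 made up 8.99% of the summed FPKM of the 9 class B genes in post A and 1.54% in post B, against 48.4% in pre A and 51.1% in pre B. HSFB2B made up 56.1% in post A and 53.2% in post B, against 18.5% in pre A and 13.9% in pre B. The leading class B gene was thus HSFB2B in both post-fertilization libraries and HSFB4 in both pre-fertilization libraries. HSFB2B stood at 6.24 times the level of HSFB4 in post A and at 34.7 times that level in post B, whereas in pre A it had 0.383 times and in pre B 0.273 times that level. In bulk ovules, fewer cells that express a gene and less RNA of it per cell cannot be told apart.

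In the deposited FPKM the summed level of the class did not separate the groups. It came to 64.0 FPKM in post A and 115 FPKM in post B, against 87.3 FPKM in pre A and 91.2 FPKM in pre B, so that the post-fertilization libraries lay on either side of the pre-fertilization libraries. This depends on the scaling. The FPKM of all genes summed to 2197998 in post A and 3574218 in post B, against 1483036 in pre A and 1804431 in pre B. Per 1000000 of that sum class B held 29.1 in post A and 32.2 in post B, against 58.9 in pre A and 50.5 in pre B, so that the groups stood apart. Protein-coding genes made up 27.1% of that sum in post A and 16.9% in post B, against 36.1% in pre A and 29.5% in pre B. Genes count as protein-coding here by a RefSeq gene table, which matched 25491 of the 28783 genes. Unmatched genes are left out of the protein-coding part, whatever they encode. Per 1000000 of the FPKM of protein-coding genes alone class B held 107 in post A and 191 in post B, against 163 in pre A and 171 in pre B, and the groups overlapped again. Both of these scalings were chosen after the data were seen. Shares within the class do not depend on them. The B4 types together held 16.3% of it in post A and 5.72% in post B, against 62.9% in pre A and 66.1% in pre B. The 3 B2 types, HSFB2C included, held 80.5% in post A and 87.1% in post B, against 34.6% in pre A and 31.1% in pre B. Within that type HSFB2B was 2.55 times HSFB2C in post A and 2.05 times HSFB2C in post B, against 1.20 times in pre A and 0.852 times in pre B. HSFB2A stayed the minor B2 type throughout. HSFB2B was 23.5 times as abundant as HSFB2A in post A and 6.71 times as abundant in post B, against 24.2 times in pre A and 17.0 times in pre B.

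**Figure D2:**
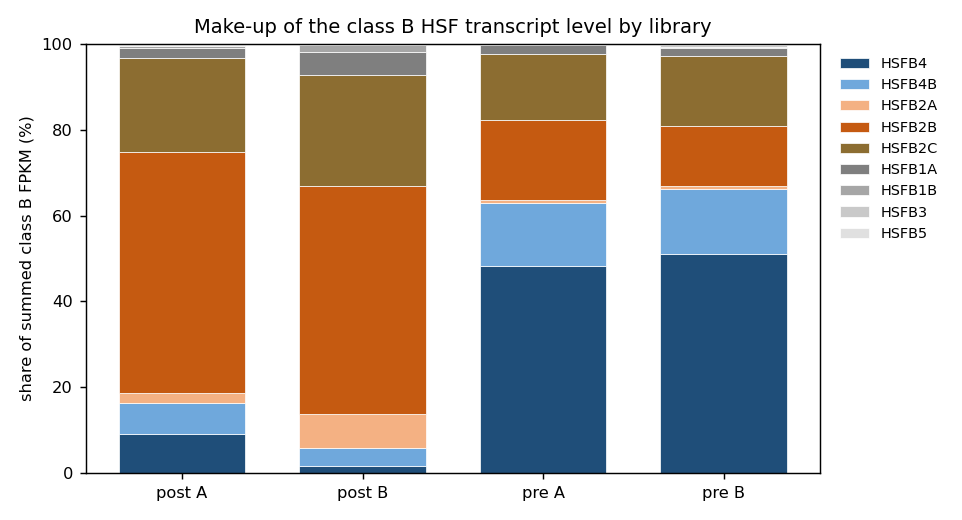
Share of each of the 9 class B genes in the summed class B FPKM of a library, in percent, for post A, post B, pre A and pre B. Blue tones are the B4 types, orange and brown tones the B2 types and grey tones the others. HSFB4 takes 48.4% and 51.1% of the bars of pre A and pre B, and HSFB2B takes 56.1% and 53.2% of those of post A and post B.

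Of the remaining 5 class B genes 2 entered the test, and neither passed it. HSFB2C had 14.1 FPKM in post A and 29.9 FPKM in post B, against 13.4 FPKM in pre A and 14.9 FPKM in pre B (limma adjusted p = 0.313). HSFB1A, of the type that in Arabidopsis represses heat genes with B2b, had 1.46 FPKM in post A and 6.09 FPKM in post B, against 1.82 FPKM in pre A and 1.76 FPKM in pre B (limma adjusted p = 0.421). In both genes post A lay within or below the pre-fertilization range and post B above it. Without post A both were called higher (limma adjusted p = 0.00444 for HSFB2C and 0.00695 for HSFB1A), and without post B neither was (0.978 and 0.589). Each of these fits sets 1 post-fertilization library against 2 and takes the spread from the pre-fertilization pair alone, although post A and post B differed 2.13-fold in HSFB2C and 4.16-fold in HSFB1A. HSFB1B, HSFB3 and HSFB5 did not enter the test. HSFB1B had 0.281 FPKM in post A and 1.79 FPKM in post B, against 0.142 FPKM in pre A and 0.086 FPKM in pre B. HSFB3 stayed between 0.165 and 0.40 FPKM in all 4 libraries. HSFB5 was at most 0.29 FPKM in every library and was listed at 0 in pre A.

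**Figure D3:**
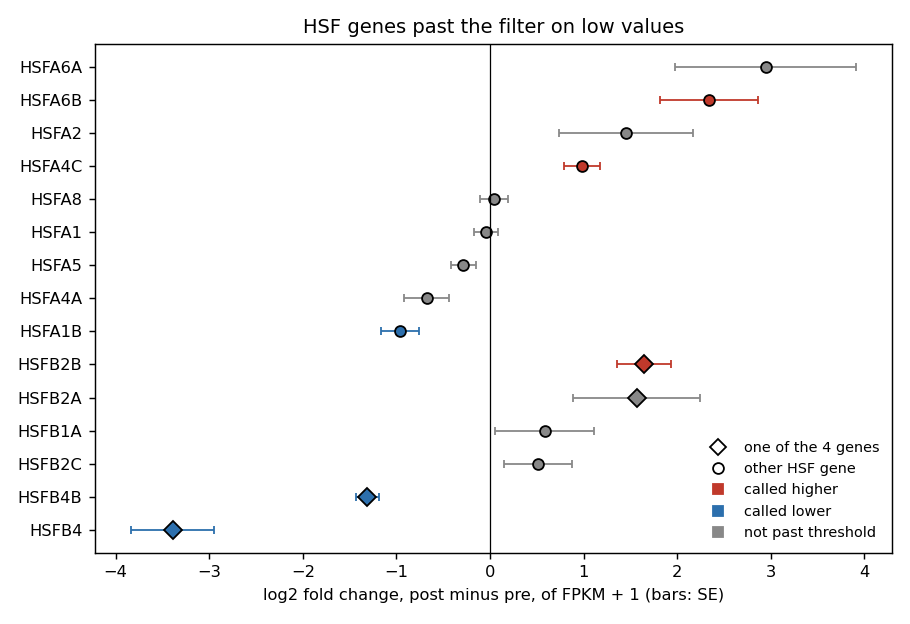
Log2 fold change, post minus pre, of FPKM + 1 for the 15 heat stress transcription factor genes that entered the test, class A above class B, with whiskers of 1 SE. Diamonds are HSFB4, HSFB4B, HSFB2A and HSFB2B, circles the other genes, and colours mark genes called higher (red), called lower (blue) or not past the threshold (grey). HSFB4 lies lowest, at -3.39, and HSFA6A highest, at 2.95 with an SE of 0.97.

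Among all 17 other heat stress factor genes, of classes A, B and C, 11 entered the test. Of these 2 rose, 1 fell and 8 did not pass, where 36.5% of all tested genes were called. Both that rose, HSFA4C and HSFA6B, were below 1 FPKM in both pre-fertilization libraries and entered the test only through the group in which they were high, so their count supports nothing about the family. The median log2 fold change of the 11 genes was 0.51, against 0.02 over all tested genes. That median includes HSFA4C and HSFA6B, so nothing about the family is read from it either. HSFA1B, of the A1 type that starts the heat response in other plants, fell to 9.39 ± 2.55 FPKM after fertilization, against 18.9 ± 1.24 FPKM before (SD, n = 2 each; limma adjusted p = 0.0261). HSFA4C rose to 1.34 ± 0.0226 FPKM, against 0.181 ± 0.0809 FPKM (SD, n = 2 each; limma adjusted p = 0.0210). HSFA4C lost that call with quantile normalization (limma adjusted p = 0.0938) and with scaling to the summed FPKM of all genes (limma adjusted p = 0.0704). Its pre-fertilization values rest on at most about 9.9 fragments in pre A and 2.8 in pre B. HSFA6B rose to 5.72 ± 4.51 FPKM, against 0.170 ± 0.0701 FPKM (SD, n = 2 each; limma adjusted p = 0.0298), and lost the call with a pseudocount of 5 (adjusted p = 0.0687). Here at most about 5.6 fragments lie behind the value of each pre-fertilization library. The 3 calls were all lost without pre A and again without pre B, where limma called 0 of the 11 genes and 3 had an unadjusted p under 0.05. HSFA2, an activator that heat induces strongly in other plants, had the highest mean of the 17. It was at 28.1 FPKM in post A and 122 FPKM in post B, against 17.4 FPKM in pre A and 24.9 FPKM in pre B (limma adjusted p = 0.174), and did not pass. Post B was 4.34-fold above post A in this gene.

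The share of class B in the summed level of all 21 heat stress factor genes was lower after fertilization. Class B held 42.5% in post A and 29.8% in post B, against 51.8% in pre A and 51.4% in pre B. In post B the denominator was large, since class A genes summed to 270 FPKM there, against 85.8 FPKM in post A, 80.3 FPKM in pre A and 86.0 FPKM in pre B. The lower share in post B thus goes with a high class A sum, most of it from HSFA2 (122 FPKM) and HSFA6A (92.2 FPKM). In post A the class A sum in deposited FPKM was within the range of the pre-fertilization libraries. Per 1000000 of the FPKM of all genes class A was at 39.0 in post A, below that range, and at 75.5 in post B, against 54.2 in pre A and 47.7 in pre B.

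Post A and post B differed widely in some genes of the family and little in others. HSFB2A differed 5.96-fold and HSFB4 3.25-fold between them, in opposite directions. HSFB2A was higher in post B and HSFB4 higher in post A. Of the 15 tested heat stress factor genes 5 were at least 3-fold higher in post B (HSFA6A, HSFA2, HSFA6B, HSFB1A and HSFB2A) and 1 at least 3-fold higher in post A (HSFB4). Over all tested genes 3.15% were at least 3-fold higher in post B and 0.734% in post A, or 3.89% in either direction. HSFA6B and HSFB2A entered the test only through their post-fertilization values. HSFB2A and HSFB4 were also chosen with their levels known, so the counts of the family support nothing about it. On the log2(FPKM + 1) scale the difference between the post-fertilization libraries was larger in HSFB2A than in 98.8% of tested genes, in HSFB4 than in 96.5%, in HSFB2B than in 91.4% and in HSFB4B than in 11.8%. Among the other heat stress factors that share ran from 5.6% in HSFA4C to 99.5% in HSFA6A. Between the pre-fertilization libraries HSFB2A exceeded 28.3% of the genes, HSFB4 52.5%, HSFB2B 84.7% and HSFB4B 38.8%. The difference of post B from post A and that of both from the pre-fertilization libraries point the same way in HSFB4, HSFB2A and HSFB2B. On the first principal component of all tested genes, post A had a score of 57.0 and post B of 86.1, against -71.4 in pre A and -71.8 in pre B. The part of this wider difference of post B in the values of the 4 genes was not tested.

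**Figure D4:**
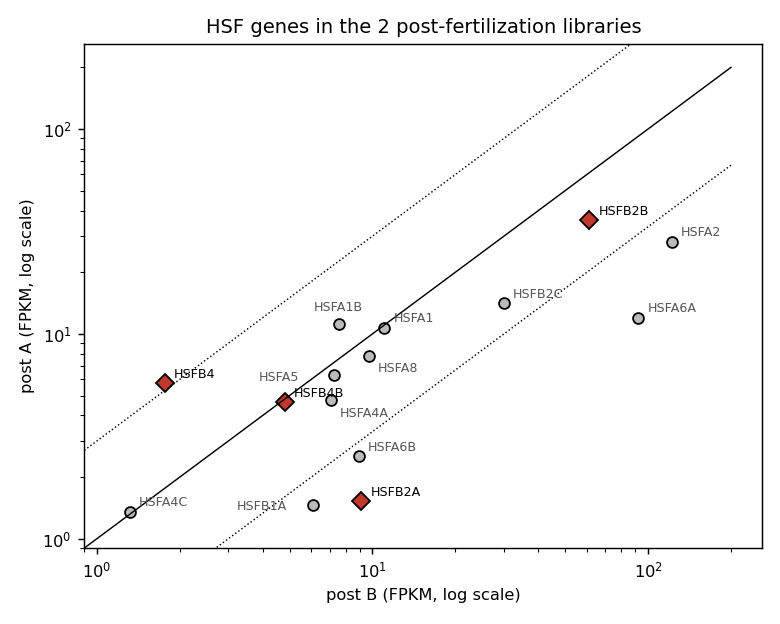
FPKM in post B (horizontal, log scale) and post A (vertical, log scale) of the 15 tested heat stress transcription factor genes. The solid line marks equal levels and the dotted lines 3-fold differences, red diamonds are HSFB4, HSFB4B, HSFB2A and HSFB2B, and grey circles the other genes. HSFB4 lies above the upper dotted line, HSFB2A and 4 other genes lie below the lower one, and HSFB4B lies near equality at 4.81 and 4.65 FPKM.

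Among the 188 other tested genes with a symbol, tRNA genes left out, the genes most like each of the 4 were taken by Euclidean distance of log2(FPKM + 1) over the 4 libraries. For HSFB4 they were ARF9 at a distance of 1.29, ARF22 at 1.40 and CAMKK2 at 1.79. ARF9 had 10.95 FPKM in post A and 4.12 FPKM in post B, against 57.4 FPKM in pre A and 48.2 FPKM in pre B, and so shared the lower level in post B. For HSFB4B the nearest were MAPK3 at 0.678, HSFA4A at 0.797 and ARF15 at 0.833. For HSFB2A they were UGT71S3 at 0.488, NAC26 at 0.744 and HSFA6B at 0.912. UGT71S3 had 1.34 FPKM in post A and 6.49 FPKM in post B, against 0.695 FPKM in pre A and 0.533 FPKM in pre B. For HSFB2B the nearest were NAC47 at 0.983, UGT78G2 at 1.16 and PRR37A at 1.18. Few of the 17849 genes carry a symbol, and 11 genes without one lay closer to HSFB4 than ARF9 did, 209 closer to HSFB2B than NAC47, 172 closer to HSFB4B than MAPK3 and 3 closer to HSFB2A than UGT71S3.

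The 4 genes lie on 4 chromosomes, so none neighbours another, and no gene of the table overlaps any of them. The nearest gene is 22255 bp away from HSFB4, 9023 bp from HSFB4B, 6149 bp from HSFB2A and 2203 bp from HSFB2B. The genes span 1684 bp (HSFB4), 1499 bp (HSFB4B), 1437 bp (HSFB2A) and 2251 bp (HSFB2B). Coordinates are those of the deposited table. The sources used here do not give its genome build.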

How the data were processed

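Total RNA from ovules was sequenced on Illumina with paired ends, per the labels' protocols, with 2 libraries after and 2 before fertilization. The authors deposited 1 table of FPKM values, with decimals and with no counts. Cufflinks, Cuffdiff, HISAT2, fastp and FastQC stand in the submitters' processing notes, without versions or roles. The sources used here give no strand, annotation, genome build or scaling across libraries. Column names give the group and not the sample, so libraries carry letters.

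Absolute depth is not given. From genes under 0.3 FPKM, depth relative to pre A was 1.01 in post A, 1.11 in post B and 0.549 in pre B. The upper limits on fragments divide FPKM times gene span by the 20th smallest such product among genes spanning 1000 to 6000 bp. Introns are part of the span, which makes the limits high.

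Genes reaching 1 FPKM in 2 or more libraries were fitted as log2(FPKM + 1) with limma 3.58.1 in R 4.3.3, with group as the only term and a variance trend (2 residual degrees of freedom, prior 2.55), two-sided, adjusted after Benjamini and Hochberg. The script was tested on simulated data. Figures were drawn with matplotlib 3.10.9. Across genes, log2(FPKM + 1) had a Pearson correlation of 0.954 between the post-fertilization and 0.964 between the pre-fertilization libraries.

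The genes and lists were chosen with earlier results of these data known. Named were the 4 genes, called genes and the one with the highest mean among other heat stress factors, and 3 nearest genes each. HSFA6A, HSFB1A, HSFB1B, HSFB2C, HSFB3 and HSFB5 were named after their values were seen. Alternatives changed pseudocount, filter, scaling, variance trend and libraries, and 2 scalings to summed FPKM were added after the data were seen. A planned list of heat shock proteins and planned tissue markers (27 names) could not be used, since 0 symbols matched in the table or in a RefSeq gene table. The ovule label was therefore not checked against markers. That RefSeq table is of another assembly. It served for chromosome numbers, for telling which genes are protein-coding, and as a further source of gene symbols. None of its coordinates were used. Reads shared between similar genes may have been split between them.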

Additional observations from a re-analysis of the deposited data

How the results depend on the processing

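In each of the 13 alternatives in which they were tested, HSFB4, HSFB4B, HSFB2A and HSFB2B kept their direction. Groups that do not overlap cannot turn when a library is left out, so this is no sign of stability. HSFB2A was not tested with a filter of 5 FPKM, without post A or without post B. With a pseudocount of 5 the log2 fold change was -2.53 for HSFB4 and -0.90 for HSFB4B, where a smaller value follows from the larger constant. HSFB2A was at 0.75 with a pseudocount of 5 and at 2.26 with 0.1, against 1.57 in the main fit. HSFB4B was at -1.46 with a pseudocount of 0.1 and at -1.45 with quantile normalization, moves larger than its small spread between libraries. Scaling to the summed FPKM of all genes gave -1.98 for HSFB4B and 0.90 for HSFB2B, and scaling to that of protein-coding genes gave -1.46 for HSFB4B. Both were added after the data were seen. They called 3 of the 4 genes each, where 27.7% of all tested genes were called with the first and 40.8% with the second. With the first HSFB2A was called and HSFB2B was not. With the first, limma called 4 of the 11 other heat stress factor genes. HSFA6A (higher) and HSFA4A (lower) were among them, and HSFA4C was not. Of all called genes 26.7% were higher after fertilization with the first and 42.9% with the second, against 57.6% with the deposited scaling. Among the fits that leave out 1 library, HSFB2A was tested only without pre A (log2 fold change 1.53) and without pre B (1.60). Over all of these fits the log2 fold change ran from -4.04 to -2.75 for HSFB4, -1.36 to -1.26 for HSFB4B and 1.27 to 2.02 for HSFB2B. In these fits the number of the 4 genes called by limma ran from 0 to 3, that of the 11 other heat stress factor genes from 0 to 5, and that of all genes from 653 to 7404. The counts of 0 came without pre A and without pre B, where 3 of the other 11 genes had an unadjusted p under 0.05. Without post A the spread was taken from the pre-fertilization pair alone, so the count of other genes called there is not read as a result. With a filter of 5 FPKM 1 of 8 other genes was called, where 39.9% of all tested genes were. HSFA4C and HSFA6B were no longer tested with that filter. Depth in pre B was the lowest, so low values such as those of HSFB2A are least certain there. No paired analysis was made, since the sample labels pair no pre-fertilization library with a post-fertilization one. The value columns, too, name only the group of a library.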
